A study of Mus musculus with 38 samples.

Results

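The 7 genes described here encode the first step of each turn of mitochondrial fatty acid oxidation and the short chain of flavoproteins that takes up its electrons. They were the rows of the count table whose Ensembl identifiers carry the symbols Acadvl, Acadl, Acadm, Acads, Etfa, Etfb and Etfdh in the GENCODE annotation of mm10. All 7 were found among 54352 identifiers, and 6 of them had enough counts for the fit across all genes. RNA came from intestinal stem cell organoids, small epithelial cultures grown from crypts, of mice of the strain C57BL6. Cultures in 65% matrigel received 1 uM GW501516 (GW) or, as the vehicle, 0.1% DMSO, and were collected at day 8 after 2 passages. GW501516 activates PPARδ, a nuclear receptor and the product of Ppard.

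The 38 libraries fell into 8 groups. Organoids labelled Ppard-fl/fl; Ppara-null (DA) gave 5 GW and 4 vehicle libraries, and those labelled Ppard-fl/fl (D) gave 4 GW and 5 vehicle libraries. Ppara-null organoids (A) and Wildtype organoids (WT) gave 5 GW and 5 vehicle libraries each. PPARα, a receptor of the same family, is the product of Ppara. The labels name no recombinase for the floxed Ppard allele, and they do not say whether libraries of a group came from separate animals. The genotype label of 1 of the 4 GW libraries of D named both genes, against its title, and the column names do not say which column it filled. Values of D are therefore given also with each of these libraries left out, where that matters.

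Acyl-CoA dehydrogenases place a double bond next to the thioester of a fatty acyl-CoA and hold the electrons on FAD. The members differ in chain length: very long (Acadvl, at the inner membrane), long and branched (Acadl), medium (Acadm) and short (Acads). The electron transfer flavoprotein (ETF), a dimer of the products of Etfa and Etfb, collects the electrons in the matrix. ETF-ubiquinone oxidoreductase, the product of Etfdh, passes them to ubiquinone in the inner membrane. PPARs act as dimers with RXR on DNA, at direct repeats of a hexamer with 1 base between the copies, and genes of fatty acid oxidation are among their known targets in liver and intestine.

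Because the cultures were treated with a PPAR agonist, the 250 bases before the RefSeq start (GRCm38.p6) were searched in all 7 members for the hexamer AGGTCA on either strand. The upstream windows of Acadl, Acadvl and Acadm are shown as the dehydrogenase that rose with GW, the one that came closest to the threshold, and one whose change was near 0. They lie on the minus strand at chr1:66863310-66863559, chr11:70015429-70015678 and chr3:153944644-153944893, and read 5′ to 3′ along each gene, with the hexamer or its reverse complement in capitals.
Acadl: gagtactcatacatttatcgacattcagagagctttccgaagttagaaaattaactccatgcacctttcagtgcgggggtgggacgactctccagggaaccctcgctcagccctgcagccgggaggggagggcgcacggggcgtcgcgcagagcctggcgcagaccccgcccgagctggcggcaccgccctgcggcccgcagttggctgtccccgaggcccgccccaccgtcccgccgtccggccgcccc
Acadvl: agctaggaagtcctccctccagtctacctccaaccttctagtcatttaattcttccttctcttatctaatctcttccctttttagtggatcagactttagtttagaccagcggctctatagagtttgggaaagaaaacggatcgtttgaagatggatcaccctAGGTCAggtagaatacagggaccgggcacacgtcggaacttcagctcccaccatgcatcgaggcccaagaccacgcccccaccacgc
Acadm: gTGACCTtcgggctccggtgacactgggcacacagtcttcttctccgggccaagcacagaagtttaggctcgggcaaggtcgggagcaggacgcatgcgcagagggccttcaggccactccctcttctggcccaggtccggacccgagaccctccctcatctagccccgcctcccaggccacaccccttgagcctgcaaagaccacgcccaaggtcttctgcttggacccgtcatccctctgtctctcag

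The hexamer was found in 2 of the 7 windows. In Acadvl it began 87 bases before the start on the strand of the gene, and in Acadm its reverse complement began 249 bases before the start. Of 32851 windows of the same length from the same table, 14.0% held it on either strand. Against a direct repeat of the hexamer with 1 base between the copies, the best match in the windows of Acadl, Acadvl and Acadm was 7, 8 and 9 of 12 bases. The window of Etfa held the closest match, 10 of 12 bases, and 3.24% of all windows reached that. A match describes these letters and is not a binding site.

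The protocol reads tags from the 3′ end of polyadenylated RNA, so each count is a tag and not a full transcript. Libraries held 353347 to 577557 counts, with 483740 at the median, and values are given as counts scaled to a library total of 1000000 (CPM). With so few tags per member and library, counting error alone is large. Epithelial markers were plentiful in every library. Col1a1, Col1a2, Col3a1 and Pdgfra of stroma and Ptprc, Cd3e and Cd79a of immune cells had 0 counts over all 38 libraries. Of the other stroma markers listed, Vim had 3 counts and Dcn had 1. Of the other immune markers listed, Lyz2 had 31 counts, spread over 22 libraries, and Csf1r had 2. Ppara had 3.80 ± 1.67 CPM under GW and 2.01 ± 1.68 CPM in vehicle in DA (SD, n = 5 and 4). In D it had 16.3 ± 11.0 CPM under GW and 10.6 ± 6.38 CPM in vehicle (SD, n = 4 and 5). These were 1 to 13 counts per library under GW and 1 to 9 in vehicle. In A the group means of Ppara were 3.30 CPM under GW and 3.64 CPM in vehicle. In WT it had 16.4 ± 8.06 CPM under GW and 17.3 ± 7.08 CPM in vehicle (SD, n = 5 each). Ppard had 0 to 4 counts per library, too few to check its deletion with 3′ tags. In the column names 24 libraries were numbered 1 to 36 and 14 were numbered 37 to 60, and the names of 5 columns held a suffix 2 whose meaning the labels do not give. Each group had libraries from both runs of numbers, but GW in D and vehicle in DA had just 1 later library each. The numbers also fell into 6 sets of 4 to 8 neighbours, each with GW and vehicle libraries, but not in balance. The first set, numbers 1 to 5, was made up of the columns with suffix 2, and its single vehicle library was of DA. The third set, numbers 19 to 22, had a single GW library, of A. Set and suffix are thus partly confounded with treatment.

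**Figure D1:**
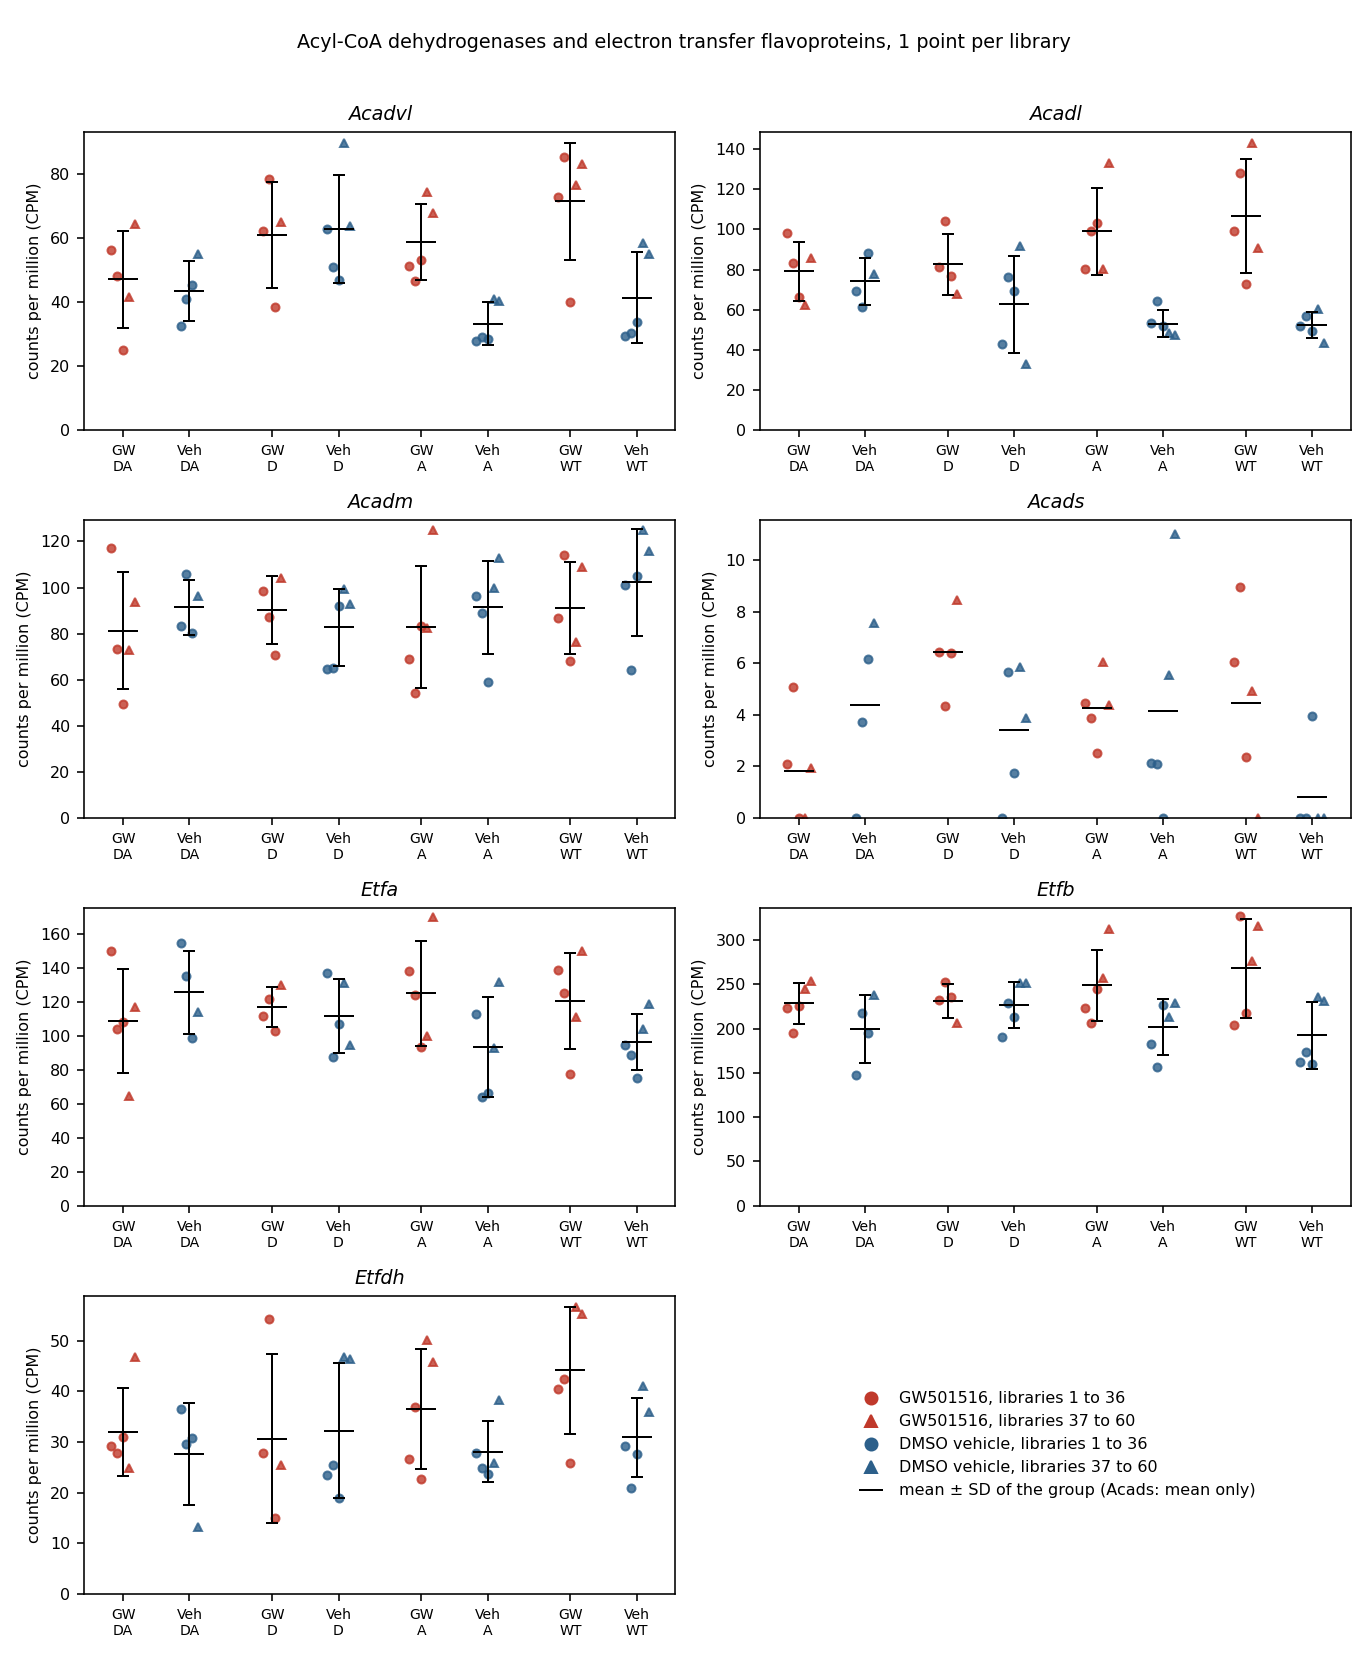
CPM of the 7 members (vertical axes, from 0) in each of the 38 libraries, in the 8 groups, GW in red left of vehicle in blue; circles are libraries 1 to 36, triangles 37 to 60, and black marks are the group mean with SD (the mean alone for Acads). For Acadl the GW libraries lie above every vehicle library of the same genotype in A and in WT, whereas for Acadm GW and vehicle overlap in each genotype.

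Acadl (ENSMUSG00000026003, mm10 chromosome 1, 66830839 to 66863277, minus strand), the long-chain dehydrogenase, rose with GW in A and in WT. It was the single member to pass in either genotype, where 0.296% of the 4729 tested genes passed in A and 0.423% in WT. In DA it had 98.0, 83.5, 66.2, 62.3 and 85.9 CPM under GW, against 69.1, 61.2, 88.4 and 77.6 CPM in vehicle. In D it had 81.5, 104, 77.0 and 67.6 CPM under GW, against 43.0, 76.4, 69.3, 91.6 and 32.9 CPM in vehicle. The treatments overlapped in both of these genotypes. In A it had 80.1, 99.1, 103, 80.4 and 133 CPM under GW, against 53.4, 64.1, 51.9, 48.2 and 47.6 CPM in vehicle. In WT it had 99.0, 128, 73.0, 143 and 90.8 CPM under GW, against 51.7, 56.7, 49.5, 60.5 and 43.6 CPM in vehicle. All 5 GW libraries lay above all 5 vehicle libraries in A and in WT. The share of all tested genes whose treatments separate in this way was not counted, here or for the members below.

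In A the change of Acadl was 1.91-fold with a 95% interval of 1.41 to 2.59, or 0.93 ± 0.22 in log2 (SE; adjusted p = 0.0389 by Benjamini-Hochberg in edgeR's quasi-likelihood test). In WT it was 1.97-fold with an interval of 1.45 to 2.67, or 0.98 ± 0.22 in log2 (adjusted p = 0.0165 by Benjamini-Hochberg in edgeR's quasi-likelihood test). The log2 fold change was 0.10 ± 0.23 in DA and 0.40 ± 0.23 in D (both adjusted p = 1.00 by Benjamini-Hochberg in edgeR's quasi-likelihood test), with 95% intervals of -0.36 to 0.55 and -0.06 to 0.87. Leaving out each GW library of D in turn gave 0.26 to 0.51, and the value in D was 0.21 without vehicle replicate 5 and 0.55 without vehicle replicate 4. Within libraries 37 to 60, with a single GW library of D, it was 0.13. No gene passed in DA or in D (0% each), where 151 and 147 genes had an unadjusted p under 0.05. DESeq2 called 1 gene in DA and 3 in D, none of them a member, and limma-trend called 0 in both. Averaged over the 4 genotypes, Acadl rose by 0.60 ± 0.11 in log2, or 1.52-fold (adjusted p = 0.00117 by Benjamini-Hochberg in edgeR's quasi-likelihood test), where 0.634% of genes passed.

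Within libraries 1 to 36 the log2 fold change of Acadl was 0.77 in A and 0.90 in WT, and within libraries 37 to 60 it was 1.17 and 1.12. With so few libraries none of these 4 values passed, with adjusted p from 0.238 to 0.999 by Benjamini-Hochberg in edgeR's quasi-likelihood test. The call in A was lost without GW replicate 2, 3 or 5 and without vehicle replicate 1, 3, 4 or 5, with log2 fold changes between 0.82 and 0.94. It was also lost with limma-trend on the deposited log2 values (0.87), with only its 2 groups in the fit (0.93) and without the columns with suffix 2 (0.99). The call in WT was lost without GW replicate 2 or 4 and without vehicle replicate 1, 3 or 5, with log2 fold changes between 0.88 and 0.96. Over all alternatives the adjusted p of Acadl by Benjamini-Hochberg, in edgeR's quasi-likelihood test or the alternative tool, ran from 0.0160 to 0.999 in A and from 0.00374 to 0.365 in WT.

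Acadvl (ENSMUSG00000018574, chromosome 11, 70010183 to 70015411, minus strand), the dehydrogenase that starts on very long chains, had higher means with GW in A and WT but did not pass. In DA it had 56.3, 48.1, 24.8, 41.5 and 64.4 CPM under GW, against 32.5, 40.8, 45.2 and 54.9 CPM in vehicle. In D it had 62.2, 78.4, 38.5 and 64.8 CPM under GW, against 62.6, 50.9, 46.7, 89.7 and 63.8 CPM in vehicle. The treatments overlapped in both of these genotypes, with log2 fold changes of 0.12 ± 0.23 in DA and -0.05 ± 0.22 in D. In A it had 51.2, 46.6, 53.0, 74.4 and 67.7 CPM under GW, against 27.8, 28.9, 28.3, 40.8 and 40.2 CPM in vehicle. In WT it had 72.7, 85.1, 40.0, 76.5 and 82.9 CPM under GW, against 29.2, 30.3, 33.7, 58.4 and 55.0 CPM in vehicle. In A every GW library exceeded every vehicle library, whereas in WT the GW library with 40.0 CPM lay below 2 vehicle libraries. The log2 fold change was 0.84 ± 0.22 in A (unadjusted p = 0.000574, adjusted p = 0.143 by Benjamini-Hochberg in edgeR's quasi-likelihood test) and 0.76 ± 0.21 in WT (unadjusted p = 0.000898, adjusted p = 0.137 by Benjamini-Hochberg in edgeR's quasi-likelihood test).

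When the run of library numbers entered the fit as a block, Acadvl passed in both genotypes, at 0.84 in A (adjusted p = 0.0439 by Benjamini-Hochberg in edgeR's quasi-likelihood test) and 0.77 in WT (adjusted p = 0.0443 by Benjamini-Hochberg in edgeR's quasi-likelihood test). With a block for the 6 sets of library numbers, chosen after seeing the data, Acadvl did not pass in A at 0.79 (adjusted p = 0.0641 by Benjamini-Hochberg in edgeR's quasi-likelihood test) or in WT at 0.74 (adjusted p = 0.0524 by Benjamini-Hochberg in edgeR's quasi-likelihood test). Averaged over the 4 genotypes it had 0.42 ± 0.11 (adjusted p = 0.0741 by Benjamini-Hochberg in edgeR's quasi-likelihood test), and with the block for sets it passed at 0.40 (adjusted p = 0.0339 by Benjamini-Hochberg in edgeR's quasi-likelihood test). Without the GW library of 40.0 CPM, the third replicate, it also passed in WT at 0.89 (adjusted p = 0.0270 by Benjamini-Hochberg in edgeR's quasi-likelihood test). Over all alternatives its adjusted p by Benjamini-Hochberg, in edgeR's quasi-likelihood test or the alternative tool, ran from 0.0439 to 0.999 in A and from 0.0270 to 0.613 in WT. Within libraries 1 to 36 its change was 0.85 in A and 1.06 in WT, and within 37 to 60 it was 0.83 and 0.46. In D its sign turned to 0.09 without GW replicate 3 and to 0.08 without vehicle replicate 4, and the change ran from -0.22 to 0.09 as single libraries were left out. The 3′ part of Acadvl overlaps Dvl2 on the other strand, which had 39 counts over all libraries against 947 for Acadvl, and whether counting used strand is not given in the sources used here.

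Acadm (ENSMUSG00000062908, chromosome 3, 153922357 to 153944632, minus strand), the medium-chain dehydrogenase, had log2 fold changes near 0. In A it had 69.0, 54.4, 83.3, 82.4 and 125 CPM under GW, against 59.0 to 113 CPM in vehicle with a median of 96.2. In WT it had 86.9, 114, 68.3, 76.5 and 109 CPM under GW, against 101, 64.3, 105, 125 and 116 CPM in vehicle. The groups overlapped in both genotypes. In DA it ran from 49.6 to 117 CPM under GW and from 80.2 to 106 CPM in vehicle, and in D from 70.6 to 104 CPM under GW and from 64.5 to 99.4 CPM in vehicle. The log2 fold changes were -0.17 ± 0.20 in DA, 0.10 ± 0.21 in D, -0.13 ± 0.19 in A and -0.18 ± 0.19 in WT. The 95% interval in WT, -0.56 to 0.20, leaves out a rise of the size fitted for Acadl. Its near copies Gm45703 and Gm5131 had 1 count in all against 1623 for Acadm.

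The count of Acadl over that of Acadm in the same library needs no scaling between libraries. The ratio ran from 0.976 to 1.82 in GW libraries of A, against 0.419 to 0.880 in vehicle, with no overlap. In WT it ran from 0.836 to 1.87 under GW, against 0.377 to 0.882 in vehicle, where a single GW library lay below the highest vehicle library. The medians were 1.16 against 0.556 in A and 1.12 against 0.483 in WT. In DA the medians were 0.917 under GW and 0.817 in vehicle, and in D 0.958 and 0.755, and the groups overlapped in both. The count of Acadvl over that of Acadm shifted too, without overlap in A or in WT. It ran from 0.544 to 0.902 under GW and 0.289 to 0.480 in vehicle in A. In WT it ran from 0.586 to 1.0 under GW and 0.289 to 0.475 in vehicle. In DA and in D the ranges of that ratio overlapped. These ratios rest on the same counts as the fold changes above, so they add no separate support, and they were not tested. Acadm, the denominator, was the only fitted member with a negative log2 fold change in A (-0.13) and in WT (-0.18), which widens both ratios. The share of gene pairs whose ratios separate in this way was not counted. A shifted ratio describes genes that differed in their change, and does not say which of them changed.

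**Figure D2:**
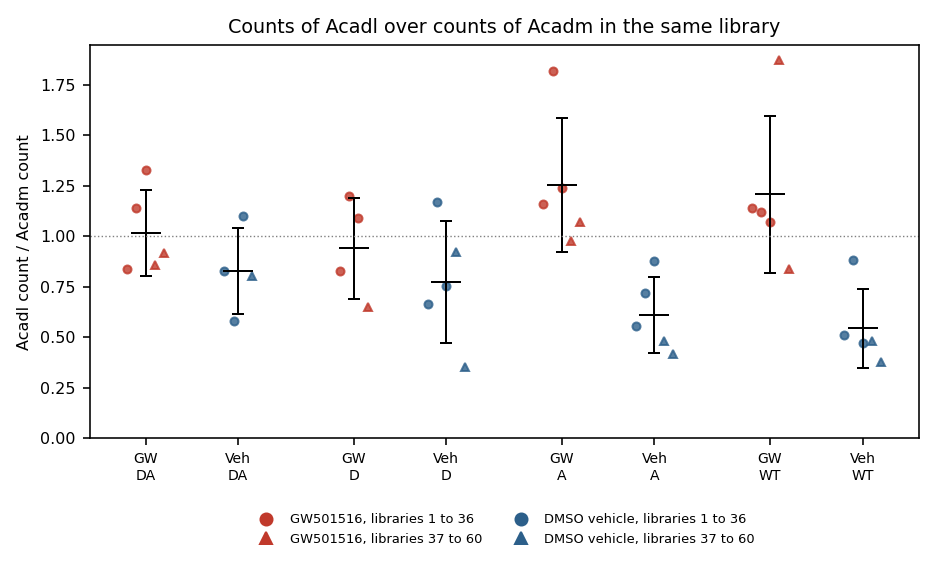
Count of Acadl divided by the count of Acadm (vertical axis, from 0; the dotted line is at 1) in each library of the 8 groups, GW in red left of vehicle in blue, with the group mean and SD in black. In A and WT 4 of 5 GW libraries lie above 1 and 0 of 5 vehicle libraries do, whereas in DA and D the treatments overlap.

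Acads (ENSMUSG00000029545, chromosome 5, 115110299 to 115119346, minus strand), the short-chain dehydrogenase, had 65 counts over all libraries, 0 to 6 in each, and did not enter the fit. In WT it had 6.06, 8.95, 2.35, 4.93 and 0 CPM under GW, against 0, 0, 3.96, 0 and 0 CPM in vehicle. These were 10 counts against 2 over the groups, a ratio of 5.42 with an exact 95% interval of 1.15 to 50.8 that covers counting error only. The counts of GW against vehicle were 4 against 9 in DA, 11 against 8 in D and 10 against 11 in A. The exact two-sided permutation test of log2(CPM + 1) over libraries gave p = 0.317 in DA, p = 0.0794 in D, p = 0.548 in A and p = 0.0873 in WT. Adjusted over the 4 genotypes, these exact permutation p-values were 0.423, 0.175, 0.548 and 0.175. The smallest p this exact test allows is 0.00794 with 5 libraries against 5 and 0.0159 with 4 against 5. At this depth no difference of Acads passed the test.

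Etfb (ENSMUSG00000004610, chromosome 7, 43444083 to 43457800, plus strand), the beta subunit of ETF, had 72 to 160 counts per library, the most of the members. In A it had 223, 206, 245, 257 and 312 CPM under GW, against 182, 157, 227, 213 and 229 CPM in vehicle. In WT it had 204, 327, 217, 276 and 316 CPM under GW, against 162, 174, 160.0, 236 and 231 CPM in vehicle. In each of these genotypes 3 of 5 GW libraries exceeded all vehicle libraries. The log2 fold change was 0.33 ± 0.14 in A (unadjusted p = 0.0253, adjusted p = 0.999 by Benjamini-Hochberg in edgeR's quasi-likelihood test) and 0.45 ± 0.14 in WT (unadjusted p = 0.00336, adjusted p = 0.312 by Benjamini-Hochberg in edgeR's quasi-likelihood test). Within libraries 1 to 36 it was 0.29 in A and 0.57 in WT, and within 37 to 60 it was 0.39 and 0.31. In DA Etfb ran from 195 to 254 CPM under GW and from 148 to 238 CPM in vehicle, a log2 fold change of 0.20 ± 0.15. In D it ran from 206 to 252 CPM under GW and from 190.0 to 251 CPM in vehicle, a log2 fold change of 0.03 ± 0.15. Averaged over the 4 genotypes it had 0.25 ± 0.07 (adjusted p = 0.149 by Benjamini-Hochberg in edgeR's quasi-likelihood test), and with the block for sets of library numbers it passed at 0.29 (adjusted p = 0.0212 by Benjamini-Hochberg in edgeR's quasi-likelihood test). Etfb shares its 3′ sequence with the readthrough gene Gm45233, which had 0 counts.

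Etfa (ENSMUSG00000032314, chromosome 9, 55454508 to 55512243, minus strand), the alpha subunit of ETF, did not pass in any genotype. In A it ran from 93.4 to 170.0 CPM under GW with a median of 124, against 64.1 to 132 CPM with a median of 92.6 in vehicle, a log2 fold change of 0.45 ± 0.20 (unadjusted p = 0.0259, adjusted p = 0.999 by Benjamini-Hochberg in edgeR's quasi-likelihood test). In WT it ran from 77.7 to 150.0 CPM under GW, against 75.3 to 119 CPM in vehicle, a log2 fold change of 0.30 ± 0.20. The groups overlapped in both genotypes. In DA it ran from 64.4 to 150.0 CPM under GW and from 98.7 to 155 CPM in vehicle, a log2 fold change of -0.20 ± 0.20. In D it ran from 103 to 130.0 CPM under GW and from 87.7 to 137 CPM in vehicle, a log2 fold change of 0.04 ± 0.21. No GW library of Etfa exceeded all vehicle libraries in DA or in D.

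Etfdh (ENSMUSG00000027809, chromosome 3, 79603788 to 79629500, minus strand), the oxidoreductase, had 7 to 28 counts per library, the fewest of the members in the fit. In A it had 26.7, 36.9, 22.7, 50.2 and 45.9 CPM under GW, against 27.8, 24.8, 23.6, 25.9 and 38.4 CPM in vehicle. In WT it had 40.4, 42.5, 25.9, 56.7 and 55.3 CPM under GW, against 20.8 to 41.1 CPM in vehicle with a median of 29.2. The groups overlapped in both genotypes, with 2 GW libraries of A and 3 of WT above all vehicle libraries. The log2 fold changes were 0.22 ± 0.30 in DA, -0.06 ± 0.30 in D, 0.41 ± 0.28 in A and 0.48 ± 0.27 in WT, none of which passed. Within libraries 37 to 60 the values in DA and D were 1.45 and -0.86, each resting on a group of 1 library. At this depth the 95% interval in WT ran from -0.07 to 1.03, which holds both no change and the size fitted for Acadl.

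**Figure D3:**
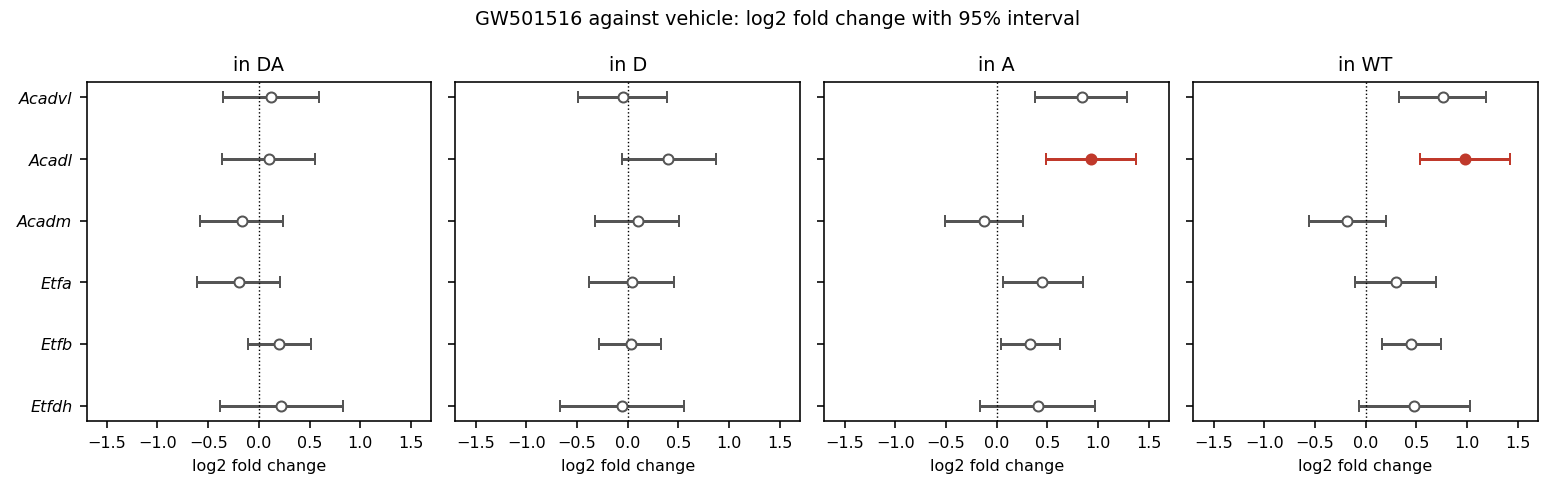
Log2 fold change of GW against vehicle (horizontal axes) of the 6 members in the fit, with 95% intervals, in DA, D, A and WT; filled red marks passed at an adjusted p of 0.05 and open grey marks did not. Acadl is the filled mark in A, at 0.93, and in WT, at 0.98, and Acadm lies just below 0 in both.

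Over the 6 fitted members the median log2 fold change was 0.11 in DA, 0.03 in D, 0.43 in A and 0.46 in WT. Over all 4729 tested genes it was 0.00 in DA, D and A and 0.01 in WT. In A and in WT 5 of the 6 were positive, against 50.3% and 51.2% of all tested genes, and in DA and in D 4 of 6 were positive. In bulk RNA, less RNA per cell and fewer cells of the type that holds the transcript cannot be told apart. The summed level of 6 enterocyte markers ran from 503 to 946 CPM under GW and 675 to 893 CPM in vehicle in A, and from 549 to 931 CPM under GW and 606 to 906 CPM in vehicle in WT. The summed level of 5 stem cell markers was 120.0 to 169 CPM under GW and 141 to 241 CPM in vehicle in A, and 132 to 215 CPM under GW and 145 to 227 CPM in vehicle in WT. The 6 enteroendocrine markers summed to 89.4 to 122 CPM under GW and 76.5 to 139 CPM in vehicle in A, and to 105 to 153 CPM under GW and 56.7 to 108 CPM in vehicle in WT. Single markers within a sum differed in direction. Among enterocyte markers Sis had log2 fold changes of -0.62 in A and -0.59 in WT, whereas Apoa4 had 0.87 and 0.70. Among stem cell markers Olfm4 had -0.85 in A and -0.35 in WT, whereas Smoc2 had 0.04 and 0.31. No tested marker passed with GW in any genotype, and the part of cell makeup in these changes was not tested.

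Whether the response depended on genotype was tested as the difference of the GW effects. None of the 6 members passed in DA minus WT, D minus WT or A minus WT, where 0.0846%, 0% and 0% of genes passed. In D minus WT and A minus WT 164 and 163 genes had an unadjusted p under 0.05, and DESeq2 and limma-trend called 0 genes in both. For Acadl the difference of the responses, DA minus WT, was -0.88 ± 0.31 in log2, with a 95% interval of -1.51 to -0.25 (unadjusted p = 0.00779, adjusted p = 1.00 by Benjamini-Hochberg in edgeR's quasi-likelihood test). In D the difference was -0.57 ± 0.32 with an interval of -1.21 to 0.07. For Acadvl the difference was -0.64 ± 0.32 in DA (interval -1.28 to -0.01) and -0.81 ± 0.30 in D (interval -1.43 to -0.19, unadjusted p = 0.0113, adjusted p = 1.00 by Benjamini-Hochberg in edgeR's quasi-likelihood test). In A the difference was -0.04 ± 0.31 for Acadl and 0.08 ± 0.30 for Acadvl, with intervals of -0.67 to 0.58 and -0.54 to 0.69. Within libraries 1 to 36 the difference in DA was -0.69 for Acadl and -0.92 for Acadvl, and within 37 to 60 it was -1.16 and -0.49. The values within 37 to 60 rest on a single vehicle library of DA. These differences share the WT libraries.

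**Figure D4:**
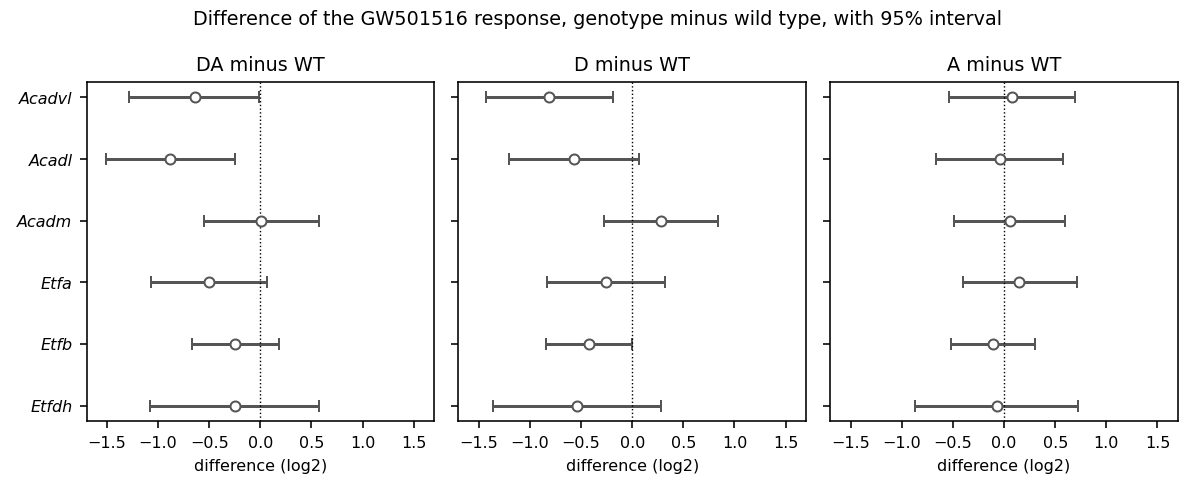
Difference of the log2 fold change of GW against vehicle, DA, D or A minus WT (horizontal axes), of the 6 members in the fit, with 95% intervals. For Acadl the interval lies below 0 in DA and holds 0 in D and A, for Acadvl it lies below 0 in DA and D, and no difference passed after adjustment.

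Against WT under GW, the 6 fitted members had negative log2 differences in DA, from -0.63 to -0.18, and none passed, where 0.846% of genes passed. Over all tested genes 49.7% were positive in that comparison. The pattern was not particular to DA. Under GW 5 of the 6 members were negative in D and in A, and in vehicle all 6 were negative in A. The comparisons under GW share the same WT libraries. Acadvl averaged 47.0 ± 15.1 CPM in DA and 71.4 ± 18.2 CPM in WT under GW (SD, n = 5 each), a log2 difference of -0.63 ± 0.21 (unadjusted p = 0.00453, adjusted p = 0.236 by Benjamini-Hochberg in edgeR's quasi-likelihood test). Acadl averaged 79.2 ± 14.8 CPM in DA and 107 ± 28.3 CPM in WT, a difference of -0.45 ± 0.21 (unadjusted p = 0.0387, adjusted p = 0.513 by Benjamini-Hochberg in edgeR's quasi-likelihood test). In D and in A under GW the differences ran from -0.47 to 0.00 and from -0.29 to 0.05, and again none passed, where 0.0634% and 0.233% of genes passed.

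In vehicle none of the members passed against WT either, where 0.296% of genes passed in DA, 0.0423% in D and 0.148% in A. Acadvl averaged 62.7 ± 16.7 CPM in D and 41.3 ± 14.2 CPM in WT (SD, n = 5 each), a log2 difference of 0.61 ± 0.21 (unadjusted p = 0.00680, adjusted p = 1.00 by Benjamini-Hochberg in edgeR's quasi-likelihood test). In A it averaged 33.2 ± 6.67 CPM in vehicle, a difference from WT of -0.37 ± 0.23. Acadl averaged 74.1 ± 11.7 CPM in DA (SD, n = 4) and 52.4 ± 6.54 CPM in WT, a difference of 0.43 ± 0.23 (unadjusted p = 0.0716, adjusted p = 0.848 by Benjamini-Hochberg in edgeR's quasi-likelihood test). These vehicle means are part of the GW effects above, since each effect is a difference from its own vehicle group.

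When the 8 groups were ordered by mean CPM, the mean ± SD ranges of neighbours in the order overlapped for each of the 7 members. Ordering puts the closest means side by side, so this overlap does not show whether groups differ. For Acadl the order ran from 107 ± 28.3 CPM for GW in WT through 99.3 ± 21.8 for GW in A, 82.7 ± 15.7 for GW in D and 79.2 ± 14.8 for GW in DA. It went on to 74.1 ± 11.7 for vehicle in DA, 62.6 ± 24.2 in D, 53.0 ± 6.65 in A and 52.4 ± 6.54 in WT. The means of the 4 GW groups of Acadl thus lay above those of the 4 vehicle groups, though neighbours overlapped. By mean CPM the same held for Etfb, where the closest were GW in DA at 228 CPM and vehicle in D at 227 CPM. With TMM scaling, as in the fit, it did not hold for Etfb, with vehicle in D at 235 CPM above GW in DA at 224 CPM. For Acadvl the order ran from GW in WT at 71.4 ± 18.2 CPM to vehicle in A at 33.2 ± 6.67 CPM, with vehicle in D the second highest. The mean ± SD ranges of the highest and lowest groups were separate for Acadl, Acadvl and Acads, and they met for Acadm, Etfa, Etfb and Etfdh. Single libraries of these groups of Acadvl still overlapped, with 40.0 CPM in GW-treated WT and 40.8 CPM in vehicle-treated A.

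Among 15 further genes of mitochondrial fatty acid oxidation, 13 were tested. With GW 0 passed as higher in DA and in D, 6 in A and 5 in WT, and 0 passed as lower. Over all tested genes 0% passed in DA and in D, 0.296% in A and 0.423% in WT. The log2 fold change was positive for 10 of the 13 in DA, 9 in D, 11 in A and 10 in WT. The median log2 fold changes of the 13 genes were 0.14 in DA, 0.24 in D, 0.73 in A and 0.77 in WT. The step after the dehydrogenases is carried out on long chains by the trifunctional protein, the product of Hadha and Hadhb. Hadha rose by 0.86 ± 0.19 in A (adjusted p = 0.0227 by Benjamini-Hochberg in edgeR's quasi-likelihood test) and 0.96 ± 0.19 in WT (adjusted p = 0.00307 by Benjamini-Hochberg in edgeR's quasi-likelihood test), and had 0.45 ± 0.20 in DA and 0.24 ± 0.20 in D. Hadhb rose by 0.81 ± 0.14 in A (adjusted p = 0.000734 by Benjamini-Hochberg in edgeR's quasi-likelihood test) and 0.77 ± 0.13 in WT (adjusted p = 0.000724 by Benjamini-Hochberg in edgeR's quasi-likelihood test), and had 0.02 ± 0.15 in DA and 0.41 ± 0.15 in D. Eci2, an isomerase for double bonds of unsaturated chains, rose by 1.35 ± 0.17 in A (adjusted p = 3.39e-06 by Benjamini-Hochberg in edgeR's quasi-likelihood test) and 1.25 ± 0.17 in WT (adjusted p = 3.68e-06 by Benjamini-Hochberg in edgeR's quasi-likelihood test), and had 0.31 ± 0.19 in DA and 0.50 ± 0.18 in D. Slc25a20, the carnitine-acylcarnitine carrier, and Acaa2, the thiolase, were named after their values were seen. Slc25a20 rose by 1.52 ± 0.30 in A (adjusted p = 0.00552 by Benjamini-Hochberg in edgeR's quasi-likelihood test) and 1.31 ± 0.27 in WT (adjusted p = 0.00688 by Benjamini-Hochberg in edgeR's quasi-likelihood test), and had 0.26 ± 0.30 in DA and 0.71 ± 0.28 in D. Acaa2 rose by 0.73 ± 0.16 in A (adjusted p = 0.0251 by Benjamini-Hochberg in edgeR's quasi-likelihood test), and had 0.08 ± 0.17 in DA, 0.16 ± 0.17 in D and 0.33 ± 0.16 in WT.

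None of the tested genes for other proteins that feed, modify or work beside ETF passed with GW in any genotype. Of 13 further dehydrogenases that give electrons to ETF and proteins that act on ETF, 6 were tested, with median log2 fold changes of -0.09 in DA, -0.15 in D, -0.10 in A and -0.07 in WT. Gcdh, the glutaryl-CoA dehydrogenase of lysine breakdown, had -0.05 ± 0.34 in DA, 0.46 ± 0.35 in D, -0.44 ± 0.33 in A and -0.72 ± 0.37 in WT. Etfrf1, which removes FAD from ETF, had 0.11 ± 0.20 in DA, 0.08 ± 0.21 in D, 0.16 ± 0.19 in A and 0.35 ± 0.19 in WT. Acadsb, the dehydrogenase of short branched chains from isoleucine, had -0.07 ± 0.36 in DA, -0.38 ± 0.35 in D, -0.04 ± 0.35 in A and -0.33 ± 0.36 in WT. Of 5 genes that supply riboflavin and FAD, Rfk and Flad1 were tested, and neither passed. Rfk ran from -0.25 ± 0.28 in A to 0.30 ± 0.32 in DA, and Flad1 from -0.17 ± 0.35 in WT to 0.16 ± 0.36 in D. Of 12 genes of other dehydrogenases that reduce ubiquinone, such as complexes I and II, 9 were tested, with a median of -0.05 in A and -0.11 in WT. Sdhb, the iron-sulphur subunit of complex II, had -0.04 ± 0.14 in DA, -0.30 ± 0.14 in D, -0.17 ± 0.13 in A and -0.22 ± 0.13 in WT.

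Likeness between members over the 38 libraries differed by pair. As a description across libraries that share treatment and run, Pearson's r of log2 CPM was 0.65 between Acadvl and Etfb, 0.52 between Acadl and Etfb and 0.51 between Acadl and Acadvl. Acadvl also had 0.51 with Etfdh and 0.45 with Etfa. Between the subunits Etfa and Etfb it was 0.23, and between Acadl and Acadm -0.02. Among 2793 genes whose log2 CPM averaged at least 5, those most like Acadl were Angptl4 (0.72), Creb3l3 (0.68) and Akr1b8 (0.67). The genes most like Acadvl were Dhrs4, Acaa2 and Lpcat3 (0.69 each), and those most like Etfb were Acsl3 (0.74), Hadhb (0.67) and Slc26a3 (0.66). Acadm was like Bpnt1 and Idh1 (0.63 each), Etfa like Lamp2 (0.64), Pts (0.59) and Mrpl24 (0.57), and Etfdh like Gnas, Calr and Scd1 (0.60 each).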

How the data were processed

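Polyadenylated RNA of 38 organoid samples was read as 3′ tags (high-throughput 3′ DGE), per the labels' protocols. The deposited tables hold counts, as whole numbers by Ensembl identifier, and log2 values of the same columns, whose back-transformed values sum to 1000000 per library, so that by the values they are log2 of CPM plus 1. The submitters' processing notes name Salmon 1.1.0, R 3.6.2, edgeR 3.26.8 and mm10. The annotation release, strand setting and any handling of molecular identifiers are not given in the sources used here. Group membership of a column was read from the treatment and genotype letters of its name, and replicates are numbered in column order. Of 57 columns, 19 matched no label and were not used. In the 72 within-group pairs of libraries chi-square per degree of freedom was 1.51 to 7.10, so none looked like a copy.

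Counts were filtered with filterByExpr by group, which left 4729 genes, scaled by TMM factors and fitted, all 8 groups together, by glmQLFit and glmQLFTest (edgeR 4.0.16, R 4.3.3). The p-values were adjusted by Benjamini-Hochberg over all tested genes within a comparison, with a threshold of 0.05. The pipeline was tested on simulated data. Acads, below the filter, was compared by exact permutation (SciPy 1.17.1) on log2(CPM + 1). Alternatives were DESeq2 1.42.0, limma 3.58.1 (limma-trend on the deposited log2 values), other size factors, no filter, fits of only the groups compared, a block for the run of library numbers, a block for 6 sets of neighbouring numbers (a step of 3 or more opened a set; chosen after seeing the data), each run alone, no columns with suffix 2, and leaving out each library. Near copies were searched with blastn 2.17.0 over the last 400 bases of each transcript, at 95% identity over 100 bases. Promoter windows were taken from RefSeq (GRCm38.p6), which matched all 7 members.

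The members, gene lists and tests were chosen with earlier results of these data known. From each list up to 4 tested genes with the smallest p for GW in WT could be named. Likeness named the 3 genes of highest Pearson's r per member, over log2 CPM with a prior count of 2. Among the further oxidation genes 1 is counted in its list, and among the genes most like a member 1 was ranked, but their values are not reported here. Spread between libraries, which may be technical, is all that the p-values measure, and intervals of counts cover counting error only.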

Additional observations from a re-analysis of the deposited data

Results flagged for a closer look

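Single libraries stood apart from the rest of their group in 4 of the 56 combinations of member and group that were looked at, where chance gives about 1 in 20. Acadvl in GW-treated WT had a lowest library of 40.0 CPM against a group median of 76.5 CPM. Etfdh had a highest library of 46.9 CPM in GW-treated DA, where the median was 29.2 CPM, and of 38.4 CPM in vehicle-treated A, where the median was 25.9 CPM. The last was Acads in vehicle-treated WT, with 3.96 CPM in a single library and 0 in the others. That library held 2 counts, within what a count of 0 allows, so it does not show a library apart.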

How the results depend on the processing

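No paired analysis was possible because the column names do not carry the replicate numbers of the labels. A block for the 6 sets of neighbouring library numbers, chosen after seeing the data, was fitted instead. GW and vehicle libraries of 1 genotype in the same set deviated together with a median correlation of 0.25 over 15 pairs, 13 of them over 0.1, a hint from the data and not from the design. Over all 107 pairs of different groups in the same set the median was 0.19, so most of this was shared across genotypes. It was 0.06 over 230 pairs of the same run but different sets, and -0.11 over 294 pairs of different runs. The main fit held no block for set or run. The depth limits what can be seen: a count of 0 allows up to 3 counts, Acads had at most 6 in a library, and the 95% interval of Etfdh in WT ran from -0.07 to 1.03 in log2.

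Calls of members, 1 each in A, in WT and for the mean effect, changed as follows. In A they became 2 with the block for runs of library numbers and 0 within libraries 1 to 36, within 37 to 60, with limma-trend, with only the groups compared and without the suffix 2 columns, and ran from 0 to 1 as single libraries were left out. In WT they became 2 with the block for runs and 0 within either run, and ran from 0 to 2. For the mean GW effect they became 2 with the block for runs, 3 with the block for sets and 0 within libraries 37 to 60, and ran from 1 to 2.

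Counts of calls over all genes moved more. Without a filter they became 9, 12, 28 and 45 for GW in DA, D, A and WT, 20, 12 and 9 for the response differences DA, D and A minus WT, 80, 18 and 54 for DA, D and A against WT in vehicle, 109, 19 and 58 under GW, and 62 for the mean effect. Libraries 1 to 36 gave 3 in A, 11 in WT, 2 for DA minus WT, 4 and 23 for D and A in vehicle, 19 for A and 19 for DA under GW, and 14 for the mean. Libraries 37 to 60 gave 1 for A minus WT, 0 for DA minus WT, 0, 4 and 8 for D, A and DA in vehicle, and 1 and 2 for D and A under GW. DESeq2 gave 1 in DA, 3 in D and 7 for DA minus WT. Limma-trend gave 1, 3 and 1 for D, A and DA in vehicle and 4 for A under GW. With only the groups compared, A gave 9, D, A and DA in vehicle gave 4, 3 and 24, and A under GW gave 5. Without the suffix 2 columns, A and DA in vehicle gave 4 and 0 and A under GW gave 0, and the block for runs gave 66 for DA under GW. The block for sets gave 2 for GW in D, 7 for DA minus WT, 26 and 14 for DA and A in vehicle, 91 for DA under GW and 62 for the mean effect. Leaving out single libraries gave 6 to 15 in A, 0 to 9 for A and 0 to 9 for DA in vehicle, and 5 to 11 for A and 23 to 48 for DA under GW.

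The signs of some uncalled values turned. Several of these were not near 0, among them Etfa in DA in vehicle, at 0.32, and Etfdh at 0.22 for GW in DA, -0.22 in DA in vehicle and -0.25 for DA minus WT. With the block for runs, GW in D gave 0.02 for Acadvl and 0.02 for Etfdh, DA minus WT -0.02 for Acadm, and DA in vehicle 0.01 for Etfb. Within libraries 1 to 36, GW gave 0.10 for Acadvl, -0.05 for Etfa and 0.47 for Etfdh in D and -0.11 for Etfdh in DA. A minus WT gave -0.21 for Acadvl and Acadm, DA minus WT -0.14 for Acadm, and in vehicle D gave -0.15 for Etfdh, A 0.03 for Acadl, and DA 0.08 for Etfb and 0.24 for Etfdh, with 0.03 for Etfa in DA under GW. Within libraries 37 to 60, with a single GW library of D and a single vehicle library of DA, GW gave -0.28 for Etfb in D, and -0.02 for Acadvl and -0.04 for Acadl in DA. The response differences gave 0.01 for Etfa in D, 0.06, 0.07 and 0.09 for Acadl, Etfb and Etfdh in A, and 0.94 for Etfdh in DA. In vehicle Etfa gave -0.05 in D and -0.03 in DA, Acadvl -0.10 in DA, and Acadm under GW 0.13 in A. Without the suffix 2 columns, Acadvl gave -0.04 for GW in DA, Acadm -0.19 for DA minus WT, Etfb 0.10 in DA in vehicle and Etfa 0.06 in D under GW. The block for sets gave -0.12 for Etfa for GW in D and 0.07 for Etfb in DA in vehicle. Limma-trend gave -0.05 for Acadm in DA minus WT, and 0.02 for Acadl in A and 0.05 for Etfb in DA in vehicle. The cause was not tested.

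As single libraries were left out, GW in D ran from -0.22 to 0.09 for Acadvl, -0.04 to 0.12 for Etfa, -0.04 to 0.11 for Etfb and -0.52 to 0.15 for Etfdh, and in DA from -0.01 to 0.26 for Acadvl and -0.02 to 0.39 for Etfdh. A minus WT ran from -0.06 to 0.18 for Acadvl, -0.15 to 0.07 for Acadl, -0.12 to 0.18 for Acadm and -0.19 to 0.06 for Etfdh, and DA minus WT from -0.13 to 0.13 for Acadm. In vehicle, Etfdh in D ran from -0.08 to 0.18, Acadl in A from -0.15 to 0.02, and in DA Acadvl from -0.10 to 0.15, Etfb from -0.08 to 0.10 and Etfdh from -0.39 to 0.03. Under GW, Etfa in D ran from -0.13 to 0.06 and in A from -0.07 to 0.14, and Acadl in A from -0.21 to 0.01. Acads in A ran from -0.03 to 0.86 in mean log2(CPM + 1).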
